A study of Mus musculus with 4 samples.

Results

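Foxl2 and its opposite-strand partner Foxl2os were read at almost no level in ethanol-treated leukaemic cells and at a clear level after OHT. Of 3 genes around them, Copb2 stayed near its ethanol level, Pik3cb had a 1.41-fold higher mean and Faim was hardly measured. These 5 genes of 1 region of mouse chromosome 9 are described here, of 16545 gene symbols in the table analysed. They were chosen by their group means in the same OHT against EtOH comparison, Foxl2 and Foxl2os for their rise and the other 3 for their place beside them. What the table shows for the 5 is therefore given as description, with no test. The samples were 4 RNA-seq libraries of cultured MLL-AF9 leukaemic cells, taken from bone marrow of C57BL/6 mice, 2 treated with EtOH (ethanol, the solvent) and 2 with OHT for 72 h. All 4 shared the genotype Ring1a-/-, Ring1bf/f and Cdkn2a-/-, so by the labels the ethanol cells too were null for Ring1a (Ring1) and Cdkn2a and carried floxed Ring1b (Rnf2). The labels name neither the recombinase that OHT acts on nor separate mice or cultures for the 2 samples within each group, so the spread between libraries, which is all that a p-value here measures, may be technical. Cells given OHT but lacking a floxed Ring1b were not analysed here, so effects of OHT itself and of losing RING1B cannot be told apart.

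FOXL2 is a forkhead transcription factor best known from granulosa cells of the ovary, where it keeps the ovarian fate and holds back testis genes, and from the developing eyelid and the gonadotrophs of the pituitary. Blood cells are not among its known sites. Foxl2os is a long non-coding RNA gene that starts next to Foxl2 and runs the other way. RING1A and RING1B are the ubiquitin ligases of Polycomb repressive complex 1, which marks histone H2A at silenced developmental genes, many of them with CpG-rich promoters.

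The starts of the pair lie so close that their promoters share sequence. In RefSeq on GRCm38.p6, a later build than the mm9 named for these data, the start of Foxl2 on the plus strand and that of Foxl2os on the minus strand are 297 bases apart, and 204 of the 250 bases upstream of each are common to both. The upstream stretches of the pair, and that of Copb2 as a neighbour at the same level in both groups, are printed to show this layout. They run 5′ to 3′ on each gene's own strand up to the base before the RefSeq start, and capitals mark each CG dinucleotide. Foxl2 lies at chr9:98955357-98955606, Foxl2os at chr9:98955311-98955560 and Copb2 at chr9:98563481-98563730.
Foxl2 (plus strand): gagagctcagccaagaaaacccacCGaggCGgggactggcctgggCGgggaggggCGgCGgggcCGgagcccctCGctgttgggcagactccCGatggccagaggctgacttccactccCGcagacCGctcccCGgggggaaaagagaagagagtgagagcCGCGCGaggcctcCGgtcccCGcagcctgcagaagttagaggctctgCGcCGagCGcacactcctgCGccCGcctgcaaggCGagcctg
Foxl2os (minus strand): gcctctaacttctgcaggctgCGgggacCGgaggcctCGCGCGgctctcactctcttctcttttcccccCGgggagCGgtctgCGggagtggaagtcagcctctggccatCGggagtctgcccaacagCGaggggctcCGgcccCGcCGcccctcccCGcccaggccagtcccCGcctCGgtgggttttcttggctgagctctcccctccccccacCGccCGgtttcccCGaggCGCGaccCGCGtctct
Copb2 (plus strand): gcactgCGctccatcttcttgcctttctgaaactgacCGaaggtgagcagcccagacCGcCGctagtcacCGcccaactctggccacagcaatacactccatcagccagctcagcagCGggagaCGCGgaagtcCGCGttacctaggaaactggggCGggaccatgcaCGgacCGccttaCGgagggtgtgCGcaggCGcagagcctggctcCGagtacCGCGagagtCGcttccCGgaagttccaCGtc

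All 5 genes had CpG-rich starts. The 250 bases held 22 CG dinucleotides for Foxl2, 23 for Foxl2os, 32 for Pik3cb, 21 for Faim and 22 for Copb2, against a median of 6 over 32851 RefSeq promoter windows of the same length. At least as many as for Foxl2 were found in 14.8% of those windows. CG content of the start thus did not set Foxl2 and Foxl2os apart from their 3 neighbours. The GC box GGGCGG, which itself holds a CG, was found on either strand 2 times for Foxl2, 3 times for Foxl2os and Pik3cb, 1 time for Faim and 2 times for Copb2, and at least 1 time in 32.7% of all windows. CCAAT on either strand was found 1 time for Pik3cb and 2 times for Faim, in 33.8% of all windows, and TATAAA in none of the 5, in 12.4% of all windows. These are matches of letters and not binding sites.

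The libraries of a group carry the letters A and B, since the table gives 1 mean per group and the reads of its 2 libraries were solved from that mean. They held 3841243 to 6255320 reads. Normalised reads are reads divided by the size factor of the library. Rnf2, the targeted gene, was at 687 and 583 normalised reads with EtOH and 716 and 797 with OHT; the deleted stretch is not given in the labels, so these reads do not check the genotype. Reads were also present for the 2 genes labelled null: Ring1 was at 49.8, 84.6, 149 and 93.8 normalised reads in EtOH A, EtOH B, OHT A and OHT B, and Cdkn2a at 59.7, 37.8, 43.7 and 51.4. For the myeloid factor Spi1 the authors' deposited table has means of 1353 and 1460. It called none of 7 myeloid markers, beside 3.62% of all transcripts called higher and 1.85% lower. For so few genes 0 calls is near those shares and does not show that the markers were level. The summed normalised reads of the 7 were 3261 and 3060 with EtOH and 5305 and 4846 with OHT. In the authors' deposited table Csf1r, the receptor of macrophage colony-stimulating factor, is at 177 and 1110, the macrophage marker Cd68 at 366 and 1017 and the granule enzyme gene Mpo at 90.3 and 202. Mpo had 22 and 123 reads in EtOH libraries A and B and 418 and 45 in OHT libraries A and B, so its groups overlapped. The remaining markers Cebpa, Itgam and Ptprc are there at 1097 and 1206, 20.3 and 31.3, and 63.8 and 56.9. Ptprc had 123 and 18 reads with EtOH and 64 and 52 with OHT (libraries A and B), so its groups overlapped. Markers of granulosa cells other than Foxl2 were low: 4 of 7 were measured, with summed normalised reads of 13.3 and 19.5 with EtOH and 33.6 and 13.4 with OHT. Of these, Amhr2, the receptor of anti-Müllerian hormone, and Inha each had 0 reads in both EtOH libraries, 6 in OHT library A and 0 in OHT library B. Wt1 had 0 reads in both EtOH libraries and 3 in each OHT library. Amh had 16, 15, 25 and 9 reads in EtOH A, EtOH B, OHT A and OHT B. Of 4 markers of Sertoli and Leydig cells none was called, beside the same shares of all transcripts. Their sums were 9.12 and 6.51 with EtOH and 24.4 and 10.05 with OHT. Of 5 stromal markers 4 were measured, and Col1a1 and Thy1 rose in the authors' deposited table, beside 3.62% of all transcripts. The sums were 29.0 and 26.0 with EtOH and 267 and 509 with OHT. Most of the OHT sums came from Thy1, with 278 and 431 reads in OHT libraries A and B, beside 38 and 24 for Col1a1. Pdgfra had 3 reads with OHT and Col1a2 none, so the sums do not show a rise of all 4 stromal markers. Their part in the values of Foxl2 was not tested. In bulk RNA, more cells with a transcript and more of it per cell cannot be told apart.

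Foxl2 (NM_012020, 1 exon) had 1 read in EtOH library A, none in EtOH library B, 164 in OHT library A and 70 in OHT library B. Normalised, that is 0.829 and 0 with EtOH and 138 and 78.1 with OHT. Both OHT libraries lay far above both EtOH libraries, and the EtOH level rests on a single read. The ratio of reads was 221, and its exact 95% interval of 39.3 to 8781 covers counting error only. In the authors' deposited table, where 1 read was added in each library, the means were 1.48 and 109, a 73.6-fold difference and the second largest log2 ratio of 18061 transcripts. The size of the fold depends on that added read: its log2 was 6.20 with it, 8.02 without it and 4.30 with 5 reads added.

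Foxl2os (NR_003248, 8 exons) had 4 and 2 reads in EtOH libraries A and B and 262 and 81 in OHT libraries A and B. Normalised, it stood at 3.32 and 2.60 with EtOH and at 220 and 90.4 with OHT. The groups did not overlap, and the 2 OHT libraries differed from each other more than for Foxl2. The ratio of reads was 54.1 (exact 95% counting interval 24.6 to 148). The authors' deposited table gives means of 4.03 and 156, a 38.8-fold difference and the sixth largest log2 ratio. Its log2 fold of 5.28 was 4.51 when OHT library A was left out and 5.78 when OHT library B was, so more than 1.5 times lower on the linear scale without library A.

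**Figure D1:**
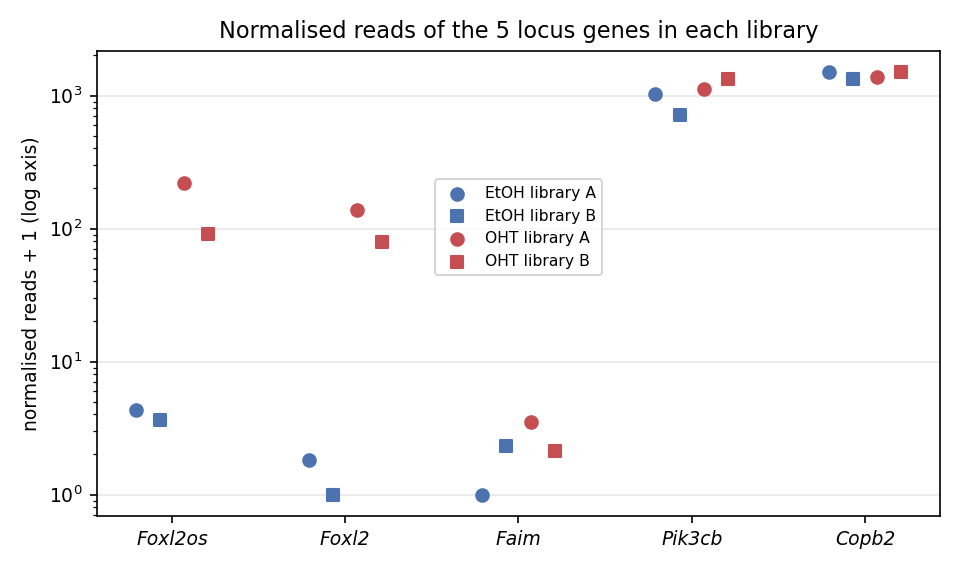
Normalised reads plus 1 on a log axis for the 5 genes of the locus, 1 point per library (circles library A, squares library B, blue EtOH, red OHT). Foxl2os and Foxl2 stand at most at 3.32 with EtOH and at 78.1 to 220 with OHT, while Faim lies near 0 and Pik3cb and Copb2 between 719 and 1505 in every library.

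Within the OHT group, library A was the higher one for both genes, 1.76 times library B for Foxl2 and 2.43 times for Foxl2os. Among 1409 transcripts with an OHT mean of 100 to 200, 49.5% were higher in library A, so a shared higher library is common, and the median absolute log2 difference between the 2 OHT libraries was 0.26. That of Foxl2 was 0.82, exceeded by 8.73% of those transcripts, and that of Foxl2os 1.28, exceeded by 2.48%. Foxl2os had more reads than Foxl2 in all 4 libraries, 1.60 times as many in OHT library A and 1.16 times in OHT library B. Per kilobase of the matching GENCODE transcript (3256 bases for Foxl2 and 3095 for Foxl2os) and scaled to the total reads of the library (RPKM), Foxl2 stood at 8.86 and 4.77 in OHT libraries A and B and Foxl2os at 14.9 and 5.80. Strand is not marked by the kit used. The RefSeq models of the 2 genes do not overlap, while their GENCODE models overlap by 12 bases at the starts, so reads near the starts may not be told apart and those further in can be.

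Pik3cb, which encodes the p110-beta catalytic subunit of class I phosphoinositide 3-kinase, was read well in every library. It had 1239 and 552 reads with EtOH and 1335 and 1195 with OHT, or 1027 and 719 against 1121 and 1334 normalised. Both OHT libraries were above both EtOH libraries, but EtOH library A lay nearer to OHT library A than to EtOH library B. The authors' deposited table gives means of 874 and 1229, a 1.41-fold difference, and did not call it. The ratio of reads was 1.34 (exact 95% counting interval 1.26 to 1.42), an interval that leaves out the spread between libraries. Its log2 fold of 0.49 was 0.77 when EtOH library A was left out and 0.26 when EtOH library B was.

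Copb2, the beta-prime subunit of the COPI coat that carries proteins back from the Golgi, was alike in all 4 libraries. It had 1808, 1023, 1645 and 1348 reads in EtOH A, EtOH B, OHT A and OHT B, or 1499, 1332, 1382 and 1505 normalised, so the groups overlapped. Its means in the authors' deposited table were 1417 (EtOH) and 1444 (OHT). The ratio of reads was 1.0002 (exact 95% counting interval 0.9498 to 1.053), and its log2 fold lay between -0.05 and 0.12 when 1 library was left out. In RPKM, Copb2 was the most abundant of the 5, at 87.3 to 98.0 in the 4 libraries, followed by Pik3cb at 22.2 to 40.9. In the OHT libraries Foxl2os and Foxl2 came next, at levels that overlapped each other.

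Faim, an inhibitor of death receptor signalling, was hardly measured. Its transcript NM_001122851 had 0 and 1 reads with EtOH and 3 and 1 with OHT, and the groups overlapped. RefSeq gives 2 curated transcripts for Faim, of which this is the 1 analysed here, so the value is that of a transcript and not of the gene. The ratio of reads was 3.78 with an exact 95% counting interval of 0.374 to 186, and no difference was detectable at this depth. Faim, the nearest measured gene downstream of Foxl2, therefore does not show how far the rise extends on that side.

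The authors' deposited table called 2 of the 5 genes higher, with an adjusted p under 0.05, as it did for 3.62% of all transcripts; 3 of the 5 had both OHT libraries above both EtOH libraries, as had 26.4% of all transcripts. The comparison chose the genes, so nothing is read from these shares. The neighbourhood can be described without that choice by taking the 10 nearest measured genes on each side of Foxl2 in RefSeq order. They comprise the other 4 genes and 16 more. Of the 16, 1 was called higher and none lower by the authors' deposited table, where 3.62% and 1.85% of all transcripts were called. At an unadjusted p under 0.05, 2 of them are higher and 1 is lower there, beside 7.82% and 6.64% of all transcripts. Limma-voom on the solved reads fitted 10 of the 16 and called 2 higher and 1 lower, against 9.72% and 5.49% of the 11338 transcripts it fitted. The median log2 fold of the 16 was 0.34, beside 0.04 over all transcripts, and 2 of them had at most 3 reads in each group. Both OHT libraries lay above both EtOH libraries for 8 of the 16, beside 26.4% of all transcripts. They lay below both for 3, but the share of all transcripts below was not counted, so nothing is read from the 3. Some of the 8 had few reads, such as Gm6432 with 1 in each OHT library. The deposited count of 1 in 16 is near its background, but alone it does not show that the 16 were level.

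**Figure D2:**
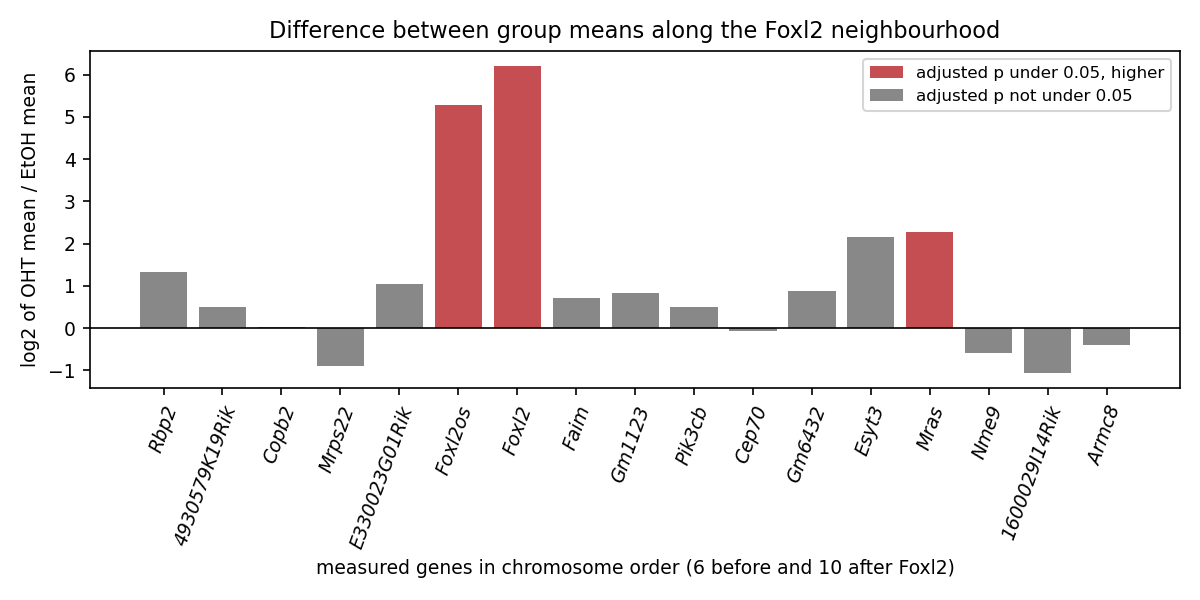
Log2 of the OHT mean over the EtOH mean, from the authors' deposited table, for Foxl2, the 6 measured genes before it and the 10 after it in chromosome order; red bars had an adjusted p under 0.05. The bars of Foxl2os and Foxl2 reach 5.28 and 6.20, those of Esyt3 and Mras 2.15 and 2.27, and the others lie between -1.07 and 1.34.

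The gene called was Mras, which encodes a small GTPase related to R-Ras, 7 measured genes downstream of Foxl2. It had 10 and 4 reads with EtOH and 45 and 32 with OHT, or 8.29 and 5.21 against 37.8 and 35.7 normalised. The groups did not overlap, and the OHT libraries were close to each other. By the authors' deposited table Mras rose 4.83-fold, with means of 7.82 and 37.7 (adjusted p = 0.0406). Limma-voom gave a log2 fold of 2.35 and called it with all libraries and in each omission of 1 except that of OHT library A, where the log2 fold was 2.30. The ratio of its reads was 5.20 (exact 95% counting interval 2.92 to 9.96).

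Its upstream neighbour Esyt3, an extended synaptotagmin of membrane contact sites, had 6 and 4 reads with EtOH and 43 and 15 with OHT. Its means were 6.16 and 27.4 in the authors' deposited table, where it was not called (adjusted p = 0.172). Limma-voom called it with all libraries (log2 fold 2.22) and without OHT library B, and not without any of the other 3. Between this pair of genes and Foxl2 lie Faim, Gm1123, Pik3cb, Cep70 of the centrosome and Gm6432, which RefSeq now names Faiml. The authors' deposited table has Cep70 at 186 with EtOH and 178 with OHT and Gm1123 at 10.7 and 19.0. Normalised, Gm1123 was at 7.46 and 11.7 with EtOH and 12.6 and 23.4 with OHT, with groups that did not overlap. Gm6432 had 2 reads in all. None of these 5 was called.

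On the side of Foxl2os, Mrps22, a subunit of the mitochondrial ribosome, had 330 and 346 normalised reads with EtOH and 178 and 183 with OHT, with groups that did not overlap. Its means were 339 and 182 in the authors' deposited table, where it was not called (adjusted p = 0.0813), while limma-voom called it lower (log2 fold -0.90). Leaving out either OHT library ended the limma-voom call of Mrps22. The non-coding gene E330023G01Rik, next to Foxl2os, was low, at 6.63 and 6.51 normalised reads with EtOH and 16.0 and 13.4 with OHT. Its groups did not overlap. Its means were 7.64 with EtOH and 15.7 with OHT in the authors' deposited table, where it was not called. The same table has Rbp2, which encodes a retinol-binding protein, at low means of 1.72 and 4.33. None of the following was called in the authors' deposited table, which has Nmnat3, of NAD synthesis, at 166 and 108, the mitochondrial carrier gene Slc25a36 at 491 and 548, Spsb4 at 130 and 147 and, beyond Mras, Armc8 at 370 and 282.

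A called gene beside another called gene was not rare in the table. Of 652 genes called higher by the authors' deposited table and placed in RefSeq order, 100 (15.3%) lay beside a measured gene, on either side, that was also called higher, against 7.39% of 15832 genes not called higher. Foxl2 and Foxl2os are 2 of the 100. Closely spaced pairs that start back to back, with starts at most 500 bases apart, numbered 637 among measured genes, a count added after the data were seen. Of all transcripts, 3.62% were called higher. Both genes were called higher in 3 of these pairs, including the Foxl2 pair chosen for its rise, 1 gene in 12 and neither in 622. The 3 were Foxl2os and Foxl2 (297 bases apart), Gm14204 and the vesicular GABA transporter gene Slc32a1 (35 bases, log2 folds of 4.32 and 3.29), and Best1 and Rab3il1 (36 bases, 1.86 and 2.02). In the 12 pairs with 1 gene called, the log2 fold of the other gene ran from -0.77 for Pole3 to 2.14 for Lhx1os in the authors' deposited table.

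Among genes with a named opposite-strand partner, Foxl2 was the 1 pair in which both were called. There were 49 pairs of a symbol and the same symbol ending in os among measured genes. Both log2 folds had the same sign in 36 of the 49, a share that was not counted for other gene pairs. Of all transcripts, 3.62% were called higher and 1.85% lower. At least 1 gene was called in 3 of the 49 pairs, including the Foxl2 pair, chosen for its rise. Besides the Foxl2 pair these were Lhx1, a homeobox gene of head and kidney development, and Fancd2 of DNA crosslink repair. By the authors' deposited table Lhx1 rose from 2.96 to 31.6 (adjusted p = 0.00555), with Lhx1os at 1.72 and 7.55 (adjusted p = 0.645). Fancd2 fell there from 409 to 125 (adjusted p = 2.05e-05), with Fancd2os at 19.1 and 2.93 (adjusted p = 0.614). Many partners were read at low levels and strand was not marked, so reads of overlapping partners cannot be told apart.

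**Figure D3:**
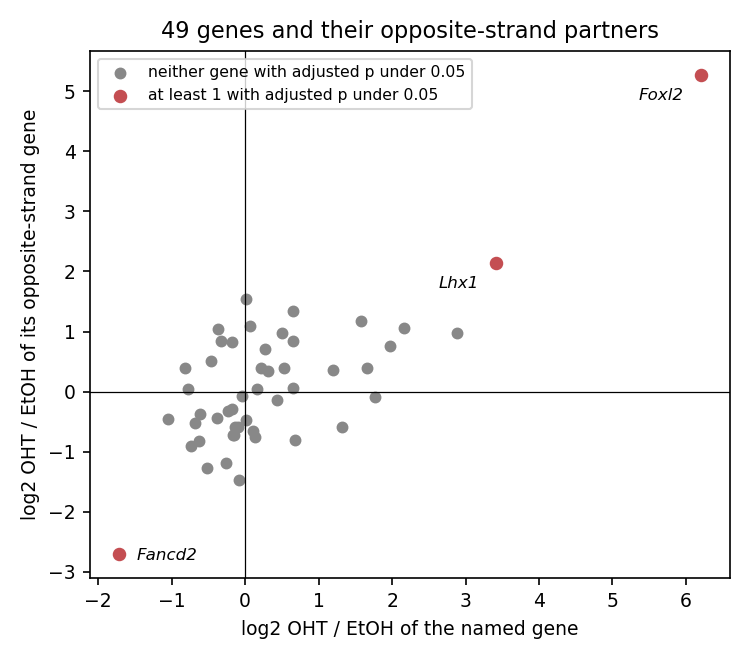
Log2 of the OHT mean over the EtOH mean in the authors' deposited table for 49 genes (x axis) and their opposite-strand partners (y axis), 1 point per pair. The Foxl2 pair lies at 6.20 and 5.28, the Lhx1 pair at 3.42 and 2.14 and the Fancd2 pair at -1.71 and -2.70.

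The transcripts whose values over the 4 libraries were most like those of Foxl2 were found by Euclidean distance over log2 of normalised reads plus 1. They were Cxcl14 (distance 0.79), a chemokine; Mcam (1.25) and Bcam (1.38), which are adhesion molecules of the immunoglobulin superfamily; the complement chains C1qc (1.43) and C1qb (1.495); and Elfn1 (1.85). The median distance of the 18060 other transcripts was 8.87. Cxcl14 had 1 and 0 reads with EtOH and 99 and 56 with OHT, with OHT library A the higher as for Foxl2. C1qb had 1 and 1 reads with EtOH and 106 and 109 with OHT, so its normalised level was higher in library B. Foxl2os stood at rank 19 with a distance of 2.33. With 4 libraries in 2 groups, likeness here means little more than a like level in each group.

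**Figure D4:**
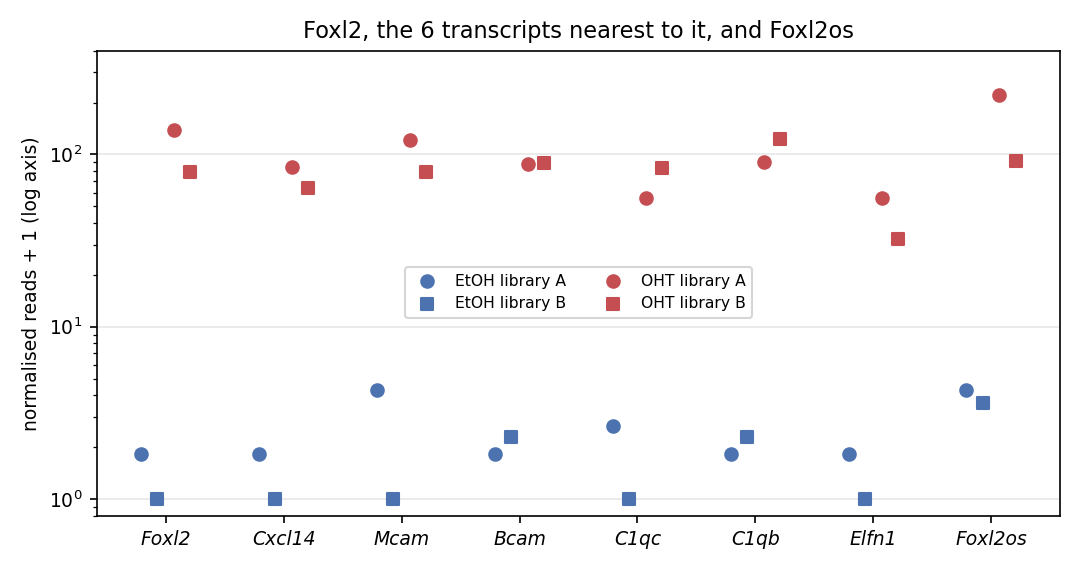
Normalised reads plus 1 on a log axis in each of the 4 libraries (symbols as in the plot of the 5 locus genes) for Foxl2, the 6 transcripts nearest to it by Euclidean distance, and Foxl2os. The 6 have at most 4 EtOH reads per library and OHT levels of 31.3 to 122 normalised reads.

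In the forkhead family, 2 of 34 measured genes rose by the authors' deposited table, Foxl2, chosen for its rise, and Foxj2, and none fell, beside 3.62% and 1.85% of all transcripts, and the median log2 fold was 0.46.

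Genes that FOXL2 is known to act on or with were mostly not called by the authors, while limma-voom called more of them higher. Of 32 such genes of granulosa cells, gonadotrophs and the opposing testis programme, 20 were measured, and in the authors' deposited table none rose and 1 fell, against 3.62% and 1.85% of all transcripts. With an unadjusted p under 0.05, 6 are higher and 1 is lower in it, beside 7.82% and 6.64% of all transcripts. Limma-voom fitted 13 of the 20 and called 5 higher and 1 lower, beside 9.72% and 5.49% of the transcripts fitted. Its read filter keeps a gene that is read in 1 group alone, such as Inhbb, so its count of fitted genes leans to those that differ. The median log2 fold was 0.65, beside 0.04 over all transcripts, and 14 of the 20 were above 0. The gene that fell was Hsd17b1, which makes oestradiol from oestrone, with means of 109 and 38.6 (adjusted p = 0.0193) in that table. It had 97.0 and 120 normalised reads with EtOH and 36.1 and 39.1 with OHT. Leaving out either OHT library ended its limma-voom call.

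The 5 that limma-voom called higher are named after their values were seen: Fst, Inhba, Inhbb, Foxo1 and Rspo1. Follistatin (Fst), which binds activin and is a known target of FOXL2, had 7 and 2 reads with EtOH and 49 and 19 with OHT (means 5.27 and 32.2, adjusted p = 0.0586 in the authors' deposited table). The activin subunit genes Inhba and Inhbb were listed there at 23.0 and 116 (adjusted p = 0.167) and at 2.31 and 28.9 (adjusted p = 0.327). Inhba was at 34.8 and 9.11 normalised reads with EtOH and 78.9 and 151 with OHT. In contrast to Foxl2, Inhba and Inhbb were higher in OHT library B than in A. Limma-voom called neither Fst nor Inhba without EtOH library B, Fst also not without OHT library A, and Inhbb not without EtOH library B or OHT library B. Foxo1 was not called without OHT library A, and Rspo1, a Wnt co-activator of the ovary, not without EtOH library A or OHT library A. Sox9, the testis factor that FOXL2 opposes, had 1 read with EtOH and 3 with OHT. The steroidogenic enzyme gene Cyp11a1, also named after its values were seen, was abundant in both groups, at 1895 and 1306 normalised reads with EtOH and 1249 and 2693 with OHT, with groups that overlapped.

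Among the partners of the neighbouring genes, 1 was called by the authors' deposited table. Of 9 class I PI3K genes, 0 were called in either direction in the authors' deposited table, with 2 higher and 0 lower at an unadjusted p under 0.05. The shares of all transcripts were 3.62% and 1.85%, and 7.82% and 6.64% unadjusted. For Pik3ca, the alpha catalytic subunit, that table has 805 and 980. Limma-voom fitted 7 of the 9 and called 2 higher (9.72% of all fitted), named after their values were seen, the regulatory subunit genes Pik3r3 (19.7 and 92.4, adjusted p = 0.0618) and Pik3r5 (146 and 501, adjusted p = 0.249, both values of the authors' deposited table), and neither without OHT library A. It called Pik3cb only without EtOH library A. Of 14 genes of the COPI coat and its GTPase cycle, 1 rose (3.62% of all transcripts did), namely Copz2, a zeta subunit, by 3.38-fold with means of 39.5 and 134 (adjusted p = 0.00118 in the authors' deposited table). Copz2 had 34.0 and 43.0 normalised reads with EtOH and 140 and 125 with OHT, and the median log2 fold of the 14 was -0.04. Of 13 measured genes of the death receptor pathway, 0 were called in either direction in the authors' deposited table, with 1 higher and 0 lower at an unadjusted p under 0.05, beside the same shares of all transcripts. Limma-voom fitted 11 and called 1 higher, Tnfrsf1a, also named after its values were seen (648 and 1094, adjusted p = 0.107 in that table), but not without EtOH library B or either OHT library. Means of Ripk1 were 881 and 1041 and those of Bid 1151 and 905, from the same authors' deposited table.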

How the data were processed

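Per the labels' protocols, libraries of RNA from 4 cell samples were made with the TruSeq RNA v2 kit. TopHat, DESeq and build mm9 are named in the submitters' processing notes; the counting program and the test settings are not given in the sources used here. The authors deposited 1 table of OHT against EtOH for 18061 RefSeq transcripts. Its signal columns are, per the file headers, base means, as the values show means over 2 libraries of reads plus 1 divided by a size factor. The deposited ratio and log2 columns compare these means, and a p-value for each transcript, raw and adjusted, was deposited beside them. A call is a deposited adjusted p under 0.05.

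Each mean was solved for the whole reads of its 2 libraries. In both groups 100% of means had 1 solution, within a relative error of 5.15e-10, and 0.559% and 0.476% of means still solved after each was moved by up to 0.1%. No transcript had 0 reads in all 4 libraries and 1355 had 1, so the value of 1 in every library stands for 0 reads. Size factors were 1.21 and 0.768 (EtOH A and B) and 1.19 and 0.896 (OHT A and B), and totals 6255320, 3841243, 5687967 and 4509718 reads. The letters A and B are arbitrary and match no replicate number. Intervals of read ratios are exact (Clopper-Pearson) at 95% and, like the floor of 3 reads, cover counting error only. Limma-voom (limma 3.58.1, R 4.3.3) was fitted to 11338 transcripts with at least 10 reads in 2 libraries, with the solved size factors, 2 residual degrees of freedom and Benjamini-Hochberg adjustment; both the solver and this fit were tested on simulated data. A fit without 1 library takes the lone sample to vary like the other group. A symbol stands by its transcript with the highest mean. RefSeq order (GRCm38.p6) placed 16484 of 16545 symbols, and promoter sequences are from RefSeq on that build, matched by symbol for all 5 genes. Named genes are the 5, the measured genes within 10 places of Foxl2, called members of each list (or the 2 highest where none was called), pairs with a call and the 6 transcripts nearest to Foxl2; others are list genes that only limma-voom called, genes of pairs that start back to back, markers and Cyp11a1, named after their values were seen. The genes, lists and tests were chosen with earlier results of these data known. Some of the genes counted are not reported here by name. The columns held 0 samples outside the series.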

Additional observations from a re-analysis of the deposited data

How the results depend on the processing

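The fold of Foxl2 and Foxl2os rests on few EtOH reads, and its size moved with the reads added before division. The log2 fold of Foxl2 was 8.02 with no read added and 4.30 with 5 added, and 5.74 to 6.55 when 1 library was left out. That of Foxl2os was 4.27 with 5 reads added and 4.51 to 5.78 without 1 library, and that of Faim 0.10 to 1.75 without 1 library. For Pik3cb and Copb2 no alternative moved the log2 fold by more than the spread between libraries, although that of Copb2 was -0.05 when EtOH library B was left out and -0.04 when OHT library B was. The 20 neighbours include Foxl2os, which was chosen for its rise. Of the 20, 0 were called higher at an adjusted p under 0.01. At 0.05, 1 of the nearest 5 on each side was called, namely Foxl2os, beside 3.62% of all transcripts. With all libraries limma-voom fitted 13 of the 20 and called 3 higher, Foxl2os among them, beside 9.72% of all fitted. Limma-voom called 1 neighbour lower with all libraries and 0 to 1 without 1 library, and with 20 genes on each side the deposited calls had 1 lower. Limma-voom called 5 genes of the FOXL2 list higher (2 to 5 without 1 library) and 0 to 1 lower without 1 library; 0 were lower at an adjusted p under 0.01. It called 2 PI3K genes higher (0 to 3 without 1 library), 1 to 2 COPI genes without 1 library, and 1 death receptor gene (0 to 2 without 1 library). At an adjusted p under 0.01, 0 pairs of a gene and its os partner had both called and 53 genes called higher had a next gene called higher. Limma-voom at 0.05 gave 241 such genes, but it called 1102 transcripts higher, beside 654 in the authors' deposited table at 0.05. Such counts depend on how many genes are called, so they do not compare how often called genes lie together. Where an alternative tests fewer transcripts or fewer libraries its construction differs; otherwise the cause was not tested. Of 105 alternatives, 73 kept their value within the limits used and 0 reversed a called direction. That 0 says little, since counts have no direction and of the 5 genes only Foxl2 and Foxl2os were called. Each of the 5 genes had 1 transcript in the table, so no other transcript could be tried. No paired analysis was possible because the columns carry no replicate numbers. Depth limits most the EtOH levels of Foxl2 and Faim, which rest on 1 read each.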
